A study of Caenorhabditis elegans with 14 samples.

Results

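RNA polymerase II recovered with the S2 antibody was compared between 6 hr and 12 hr of L1 arrest, the state in which larvae of Caenorhabditis elegans that hatch without food stop developing and wait. The comparison used the 2 density columns that the deposited tables give for this antibody in starved larvae, 1 for 6 hr and 1 for 12 hr. The labels give 3 such samples among the 14 of the series, 2 at 6 hr and 1 at 12 hr. All larvae were of the wild-type N2 strain and hatched in S-complete medium without bacteria, 18 hr of culture giving 6 hr of arrest and 24 hr giving 12 hr of arrest, and whole larvae were fixed with formaldehyde. The 6 hr column carries the title of the first 6 hr sample, and whether it also holds the second is not stated. Other columns used for comparison were 4H8, another antibody to the same polymerase domain, with 2 columns at 12 hr of arrest and 2 after 1 hr of feeding on HB101 bacteria, 8WG16, with 1 column in each of those states, S2 after 1 hr of feeding, and 1 pooled input column. Densities were given for 20314 gene models with coordinates and for the window around the start site of each.

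RNA polymerase II carries a long repeated tail on its largest subunit. Kinases phosphorylate serine 2 of the repeats as the enzyme moves into the gene body, so an antibody to that mark is commonly used to follow elongating polymerase. In starved larvae polymerase has also been reported to gather near the starts of genes that are used after feeding. Many nematode transcripts have their 5′ ends replaced by trans-splicing, so an annotated start can lie downstream of the place where polymerase initiates.

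Density was in RPKM, reads per kilobase scaled to sequencing depth, so levels of different genes are compared per length. The steps of the values gave a depth of 2592000 reads at 6 hr and 4272000 at 12 hr, and the median start window held 3 and 4 reads. A window with 3 reads had 5.79 RPKM at 6 hr and 3.51 RPKM at 12 hr. Differences near or below that size rest on few reads, and larger ones can also lie within counting error. With 1 column per time there is no replicate of either time and no p-value is given. The size of a difference is set beside the difference between the replicate columns of 4H8 at 12 hr and in recovery, which shows the spread of this assay with another antibody. The descriptions of the 6 hr and 12 hr libraries hold different codes whose meaning the labels do not give, so time of arrest cannot be told apart from any other difference between these libraries. A change in polymerase per cell and a change in the share of a cell type in whole larvae also cannot be told apart. Among defining tissue markers, 4 of 4 muscle genes had more density than input at both times, with a summed level of 333.4 RPKM at 6 hr and 347.2 RPKM at 12 hr. Neuronal genes were above input in 3 of 4 at 6 hr and 4 of 4 at 12 hr, intestinal genes in 2 of 5 and hypodermal genes in 2 of 4 at both times. The germline markers pgl-1 and glh-1 and the sperm markers gsp-3 and gsp-4 were below input at both times, and 2 of 30 msp genes were above input at each time.

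In RPKM, S2 density at gene starts was more often higher than lower at 12 hr against 6 hr. The median difference over whole gene models was small. Values were compared as log2(RPKM + 5) in features with a mean of at least 10 RPKM over both columns. Of 6417 start windows, 917 (14.3%) were at least 2-fold higher at 12 hr and 244 (3.8%) at least 2-fold lower, with a median log2 difference of 0.20. Of 7091 gene models, 76 (1.07%) were at least 2-fold higher and 58 (0.818%) at least 2-fold lower, with a median log2 difference of 0.021. Between the 4H8 replicate columns at 12 hr, 3.45% of start windows were at least 2-fold higher in replicate 2 and 5.10% at least 2-fold lower, and in recovery these shares were 3.84% and 2.67%. The share of start windows past 2-fold in the upward direction was therefore larger between 6 hr and 12 hr than between replicate columns, and the share in the downward direction lay within the replicate columns' range. For gene models the 4H8 columns gave 0.670% and 0.312% at 12 hr and 0.608% and 0.304% in recovery. The S2 shares of gene models, 1.07% and 0.818%, were thus larger than these in both directions.

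**Figure D1:**
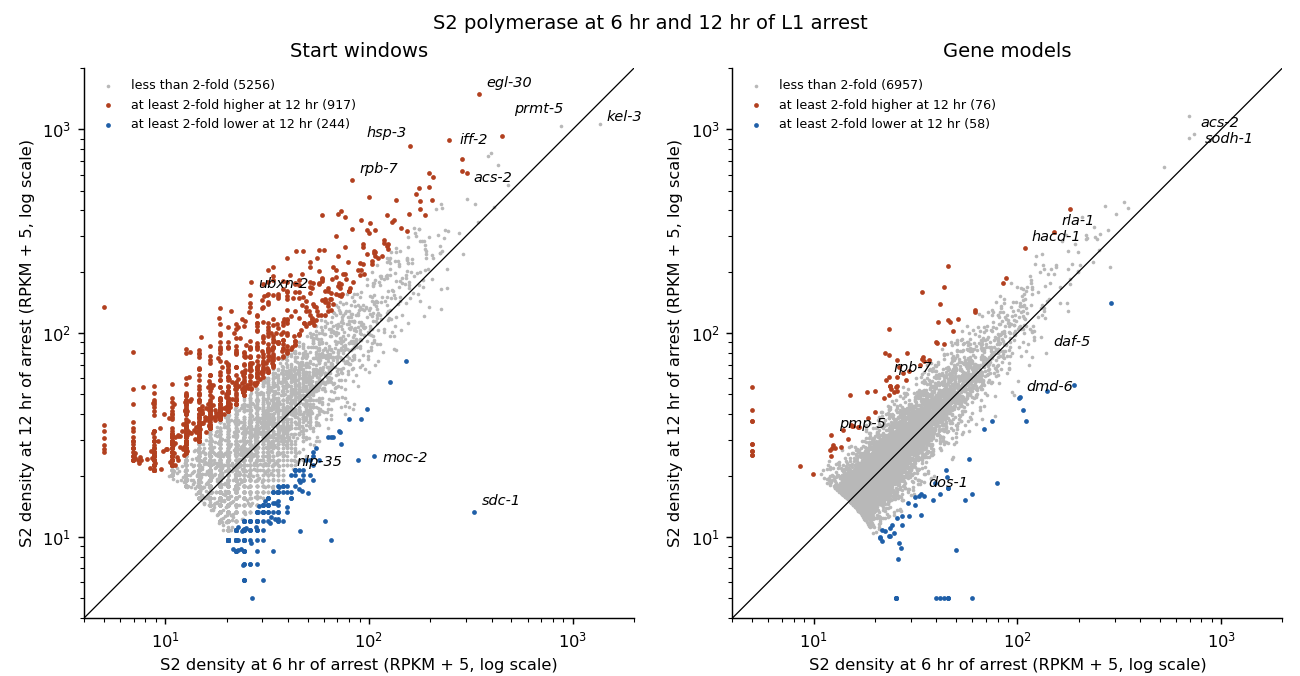
Density at 12 hr (vertical axis) against 6 hr (horizontal axis) of L1 arrest, in RPKM + 5 on log scales, for 6417 start windows (left) and 7091 gene models (right); each point is 1 feature and the line marks equal density. At starts the 917 red points above the line outnumber the 244 blue points below it, and the gene models stay close to the line.

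**Figure D2:**
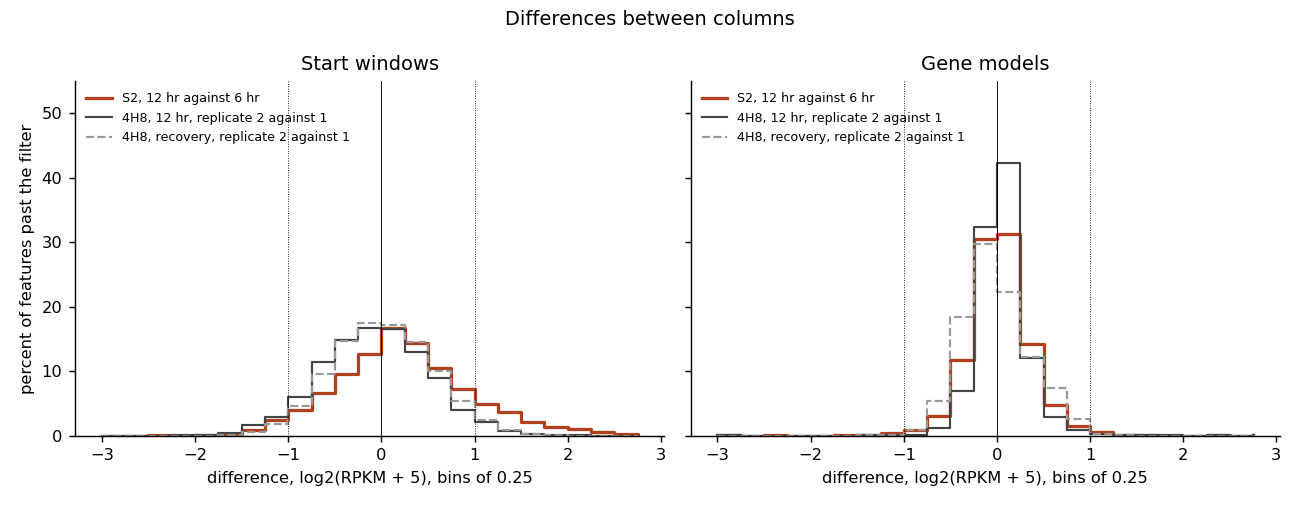
Percent of features (vertical axis) in bins of the log2 difference (horizontal axis) for S2 at 12 hr against 6 hr and for the replicate pairs of 4H8, with dotted lines at a 2-fold difference. For start windows the S2 curve has a longer right side than either replicate pair, and for gene models its median lies at 0.021.

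Direction depended in part on scaling. Of the start windows past 2-fold, 79.0% were higher at 12 hr, which became 60.9% after quantile normalization and 61.6% after centring on the median start window. Of the gene models past 2-fold, 56.7% were higher, against 47.2% after quantile normalization and 79.1% after centring on the chemoreceptor genes, whose own median log2 difference over 1344 genes was -0.18 for gene models and -0.058 for start windows. The exact 95% interval of the read ratio excluded 1 in 817 of the 917 higher and in 183 of the 244 lower start windows. For gene models it did so in 55 of the 76 higher and 33 of the 58 lower. The same reads chose these features, so the intervals describe them and do not test whether counting error produced the calls. Higher start windows held a median of 38 reads in their denser column and lower ones held 11. Gene models under 500 bp made up 33 of the 76 higher and 37 of the 58 lower gene models.

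The start windows that were higher at 12 hr began near background. Their median density was 14.4 RPKM at 6 hr and 48.2 RPKM at 12 hr, against 16.4 RPKM in input, and 47.3% of them exceeded input at 6 hr and 96.6% at 12 hr. Those values chose the windows and are given as a description. Columns that had no part in the choice gave medians of 53.6 and 37.7 RPKM with 4H8 and 50.3 RPKM with 8WG16 at 12 hr of arrest. After 1 hr of feeding the same windows had medians of 21.2 RPKM with S2, 25.6 and 21.8 RPKM with 4H8 and 22.7 RPKM with 8WG16. The medians of these 4H8 and 8WG16 columns were thus higher in the 12 hr larvae than in fed larvae. The low median of the 6 hr column is fixed by the choice of windows and is compared with none of them. Over the 6417 start windows the 12 hr S2 column correlated more with 4H8 at 12 hr (Pearson r 0.88 and 0.87) than in fed larvae (0.75 and 0.67). Choosing windows that are dense in the 12 hr S2 column therefore favours higher medians at 12 hr than after feeding. The 244 lower windows had a median of 21.2 RPKM at 6 hr and 6.18 RPKM at 12 hr, and between 8.88 and 10.8 RPKM in the 3 other columns from 12 hr of arrest. Windows within 2-fold had medians of 19.3 and 19.9 RPKM with S2. With 4H8 their medians were 18.3 and 18.3 RPKM at 12 hr and 16.7 and 16.2 RPKM after feeding.

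Gene models of the windows that differed had smaller differences than the windows. The windows were chosen for large differences and the gene models were not, so the choice itself favours this order. Among the 917 higher start windows the median log2 difference of the gene model was 0.16, 640 gene models (69.8%) were within 1.25-fold, 25 were at least 2-fold higher and 1 was at least 2-fold lower. Of these gene models 693 were above 0 and 223 below. Where the start window was within 2-fold, 77.1% of gene models were within 1.25-fold. Among the 244 lower windows the median gene model difference was -0.29, with 14 at least 2-fold lower. Gene models include part of the start window, so these values are not independent of each other. The median gene length was 2281 bp for higher, 1847 bp for lower and 2337 bp for windows within 2-fold, and 4.0%, 3.3% and 6.7% of the windows began inside another gene model.

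The 5′ bias, computed for models of at least 1000 bp as log2 of (start window density + 5) over (gene density + 5), gives the same comparison gene by gene. Its median over 7310 genes was -0.064 at 6 hr, 0.093 at 12 hr and -0.17 after 1 hr of feeding in the S2 columns, and 0.14 and 0.073 in the 4H8 columns at 12 hr. A bias of at least 1, meaning a start at least 2-fold denser than its gene, was seen in 15.3% of genes at 6 hr, 22.5% at 12 hr and 15.3% after feeding. Between 6 hr and 12 hr the bias was at least 2-fold higher in 837 genes (11.5%) and at least 2-fold lower in 202 (2.76%). Between the 4H8 replicate columns these shares were 2.64% and 5.5% at 12 hr and 2.74% and 2.24% in recovery. Of the 837 genes, 695 had a start window at least 2-fold higher and 6 had a gene density at least 2-fold lower. In the authors' deposited table of enrichment over input, 1649 start windows had a ratio above 2 at 6 hr and 2316 at 12 hr, of which 1350 were shared, 81.9% of the first list and 58.3% of the second. Above a ratio of 5, the authors' deposited table held 268 start windows at 6 hr and 604 at 12 hr. For gene models the authors' deposited table held 1324 above 2 at 6 hr and 1512 at 12 hr.

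The difference at starts grew with the density of the start. Adding 5 RPKM shrinks differences of sparse windows more than those of dense ones, and its share in this rise was not tested. Where the mean of both S2 columns was 10 to 20 RPKM, 7.96% of 3190 windows were at least 2-fold higher and 5.74% at least 2-fold lower. The shares were 16.6% and 2.34% of 2262 windows from 20 to 50 RPKM, and 26% and 0.923% of 650 windows from 50 to 100 RPKM. At 100 RPKM and over, 118 of 315 windows (37.5%) were at least 2-fold higher and 2 (0.635%) at least 2-fold lower, with a median log2 difference of 0.75. Replicate columns of 4H8 were set in the same classes of their own densities. At 12 hr the densest windows were at least 2-fold higher in replicate 2 in 0.228% and lower in 5.94%. In recovery they were higher in none of 268 and lower in 2.61%. Replicate medians also moved with density, with the other sign. From the 10 to 20 RPKM class to the densest they went from 0.0055 to -0.29 at 12 hr, and from 0.15 to -0.39 in recovery. Since the order of replicates is arbitrary, a smaller shift graded with density also occurred between replicate columns. When the classes were set on the mean of the 4H8 columns instead, 156 of 337 windows at 100 RPKM and over (46.3%) were at least 2-fold higher and none lower. All 4H8 columns came from 12 hr of arrest or later, so these classes lean towards the later state. Windows of at least 100 RPKM numbered 205 at 6 hr and 458 at 12 hr, and windows of at least 200 RPKM numbered 36 and 134.

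**Figure D3:**
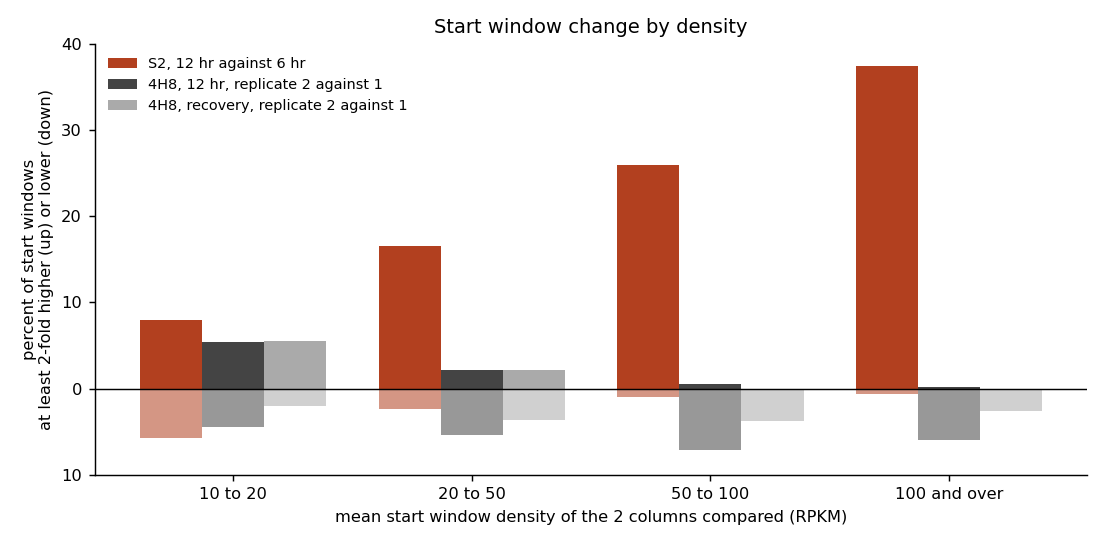
Share of start windows at least 2-fold higher (bars up) or lower (paler bars down), in percent, by the mean density of the 2 columns compared, in RPKM. The S2 bars rise from 7.96% to 37.5% with density, and those of the replicate pairs of 4H8 fall towards 0 in the upward direction.

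Among chromosomes the X stood lowest. Of the start windows on the autosomes, 15.2% of 5635 were at least 2-fold higher and 3.43% lower, with a median log2 difference of 0.22. On the X, 8.06% of 782 were higher and 6.52% lower, with a median of 0.012. In the class of 100 RPKM and over in 4H8, 17 of 31 windows on the X and 139 of 306 on the autosomes were at least 2-fold higher, and none was lower on either. From 10 to 20 RPKM the X had 9 higher and 25 lower of 290, and the autosomes 171 higher and 79 lower of 1989. Above 500 bp, gene density leaned with gene length. The median log2 difference went from 0.12 in models of 500 to 1000 bp to -0.093 in models of at least 10000 bp, where none of 373 passed 2-fold. Models under 500 bp had a median of 0.082. The part of the start window inside a gene model is a larger share of a short model, and its part in this lean was not tested.

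Among genes with a public symbol, the start with the largest increase was that of rpb-7, which encodes a subunit of RNA polymerase II itself. Its start window on chromosome I, where the gene lies at 3031213 to 3032939 on the minus strand (WS190), had 77.8 RPKM at 6 hr and 556 RPKM at 12 hr, with 42 RPKM in input. These were 23 and 271 reads, a ratio of 7.15 (95% counting interval 4.67 to 11.5). The 4H8 columns at 12 hr had 755 and 455 RPKM there and S2 after feeding had 249 RPKM. The rpb-7 gene model had 17.7 RPKM at 6 hr, under its input of 19.7 RPKM, and 54.1 RPKM at 12 hr. Its log2 difference of 1.38 was also the largest of a gene model in this ranking. The gene model held 79 reads at 6 hr and 399 reads at 12 hr and includes part of the start window. Its increase is therefore not separate from that of the start. The S2 values chose this gene and 4H8 has no column at 6 hr, so the 4H8 values are given as a description.

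The other starts among the 10 with the largest increase belonged to genes of varied roles. The start of cic-1, which encodes cyclin C of the Mediator complex, had 7.72 RPKM at 6 hr and 78.4 RPKM at 12 hr. At ppfr-1, a regulatory subunit of protein phosphatase 4, the start had 27 and 200 RPKM, against 30.7 RPKM in input. The start of rpn-5, which encodes a lid subunit of the proteasome, had 7.72 and 74.9 RPKM. For drs-1, the aspartyl-tRNA synthetase, the start had 3.86 and 50.3 RPKM, and for pfd-3, a prefoldin subunit that helps fold actin and tubulin, 25.1 and 170 RPKM. At exoc-7, a subunit of the exocyst that tethers secretory vesicles, the values were 8.21 and 76.0 RPKM. The ubxn-2 start, of a gene for a UBX-domain protein, had 21.2 and 149 RPKM, and that of fbxa-67, an F-box gene, 1.93 and 39.8 RPKM. At lin-9, which encodes a member of a complex that represses cell cycle genes, the start had 0 reads at 6 hr and 22 reads at 12 hr, or 25.5 RPKM. At 6 hr the starts of ppfr-1, rpn-5, drs-1, exoc-7, fbxa-67 and lin-9 were below their input, and at 12 hr all 9 were above it.

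In 9 of these 10 genes replicate 1 of 4H8 was the denser replicate at the start, by 0.57 to 1.67 on the log2 scale. The S2 differences, which chose these genes, were 2.54 to 2.76. At lin-9 replicate 2 was denser by 0.87. There the 4H8 columns had 3.54 and 10.7 RPKM, below the S2 value at 12 hr. In cic-1, fbxa-67, exoc-7, lin-9, ubxn-2 and pfd-3 the gene model differed by no more than 0.27 in either direction on the scale with 5 RPKM added, which shrinks differences of sparse genes. The read ratio over the gene was 1.60 (95% counting interval 1.13 to 2.31) in cic-1 and 0.752 (0.573 to 0.989) in ubxn-2, against 10.2 and 7.01 at their starts. The starts were chosen for large differences and the gene models were not. The gene model of drs-1 overlaps that of nlp-36, which is denser, and ppfr-1 contains the denser microRNA genes mir-71 and mir-2.

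**Figure D4:**
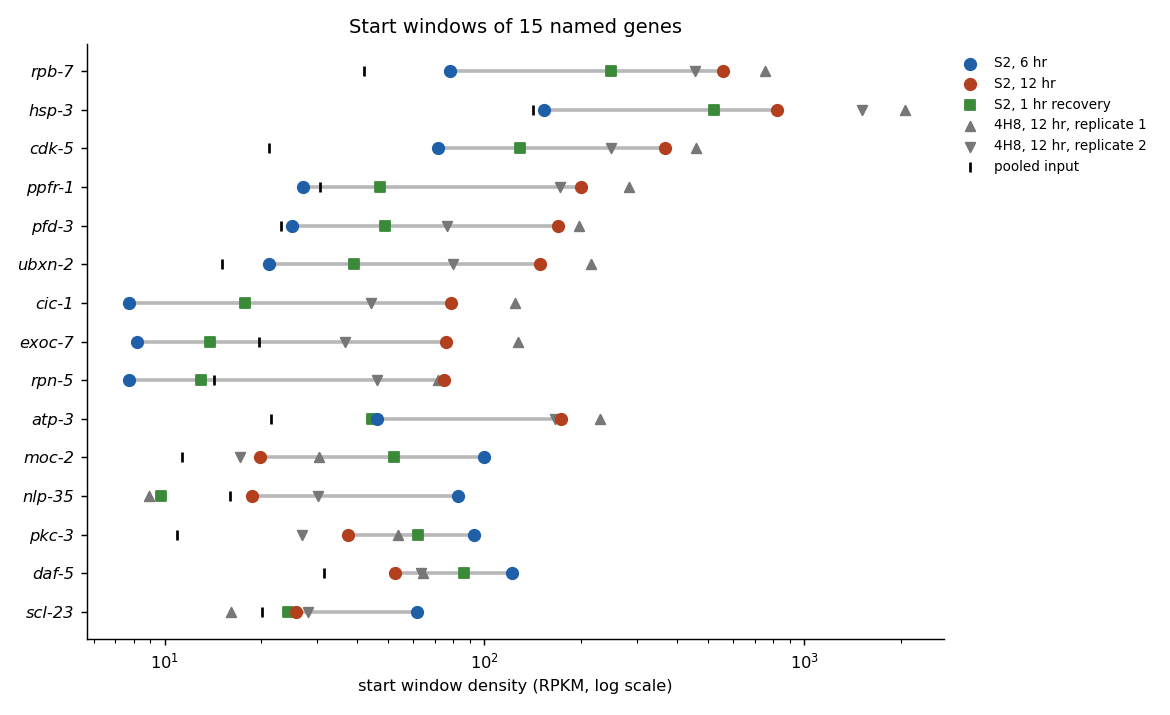
Start window density in RPKM (horizontal axis, log scale) of 15 named genes in S2 at 6 hr, 12 hr and 1 hr of recovery, in both 4H8 replicates at 12 hr and in the pooled input. In the upper 10 genes S2 at 12 hr lies to the right of 6 hr, and in the lower 5 it lies to the left; each marker is 1 column.

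Several dense starts outside that ranking also had more S2 polymerase at 12 hr. The start of hsp-3, which encodes an endoplasmic reticulum chaperone of the BiP family, had 154 RPKM at 6 hr, close to its input of 142 RPKM, and 824 RPKM at 12 hr. Its 4H8 columns at 12 hr had 2070 and 1520 RPKM. The start of atp-3, a subunit of mitochondrial ATP synthase, had 46.2 and 174 RPKM, a ratio of 3.77 (95% counting interval 2.44 to 6.06). At xbp-1, which encodes a transcription factor of the unfolded protein response, the start had 131 and 255 RPKM. That of zip-4, another bZIP factor gene, had 42 and 132 RPKM, and that of tre-1, a trehalase gene, had 100 and 247 RPKM. The cdk-5 start had 71.6 and 366 RPKM, but it lies inside the gene model of kel-3, and the cdk-5 gene density was lower at 12 hr, 205 RPKM against 279 RPKM. The S2 values of these genes were known when they were named, and 4H8 has no column at 6 hr. Their 4H8 values at 12 hr are therefore no test of the S2 difference.

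The densest starts were partly the same at both times. At 6 hr they were led by kel-3 with 1350 RPKM and prmt-5, an arginine methyltransferase gene, with 871 RPKM, which had 1060 and 1040 RPKM at 12 hr. At 12 hr the densest was egl-30, which encodes a G protein alpha subunit, with 1480 RPKM, against 343 RPKM at 6 hr. The start of iff-2, the gene for translation factor eIF5A, had 241 and 882 RPKM. The mir-52 start had 474 and 531 RPKM. So kel-3 and prmt-5 differed by less than 2-fold while egl-30 and iff-2 passed it.

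Fewer starts were less dense at 12 hr, and their values were lower. The largest decrease under the naming rule was at moc-2, a gene for molybdenum cofactor synthesis, with 100 RPKM at 6 hr and 19.9 RPKM at 12 hr. These were 52 and 17 reads, a ratio of 0.198 (95% counting interval 0.108 to 0.349), and the 4H8 columns had 30.4 and 17.2 RPKM. The start of nlp-35, a neuropeptide-like gene, had 82.9 and 18.7 RPKM, and its gene model had 72.6 and 34.1 RPKM. Its 4H8 replicates differed from each other by 1.34 at the start, close to the S2 difference of -1.89 in size. At pkc-3, an atypical protein kinase C, the start had 92.6 and 37.5 RPKM. For daf-5, a partner of the TGF-beta pathway factor DAF-3, the start had 122 and 52.7 RPKM and the gene model 134 and 74.9 RPKM. The starts of rab-35, cyp-29A2, lpr-1, sptf-3 and scl-23 had between 42.4 and 61.7 RPKM at 6 hr and between 11.5 and 25.8 RPKM at 12 hr. The start of clec-178 lies inside skn-1 and had 67.5 and 23.4 RPKM.

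Over whole gene models, the 12 genes with the largest increases under the naming rule were led by rpb-7, whose gene model includes part of its start window. The rule asks for a public symbol, at least 20 reads and 2 times input in the denser column. Gene models outside the rule differed by more. The gene hacd-1, which encodes a hydroxyacyl-CoA dehydrogenase of fatty acid oxidation, had 104 RPKM at 6 hr and 256 RPKM at 12 hr, from 335 and 1364 reads, a ratio of 2.47 (95% counting interval 2.19 to 2.79). Its 4H8 columns at 12 hr had 210 and 217 RPKM, and S2 after feeding had 45.7 RPKM. Density at pmp-5, a gene of the peroxisomal ABC transporter family, was 7.24 RPKM at 6 hr, 26.5 RPKM at 12 hr and 3.96 RPKM after feeding. The enoyl-CoA hydratase gene ech-7 had 57.0 and 124 RPKM, and 174 RPKM after feeding. The 4H8 replicates of these 3 genes differed by at most 0.62 on the log2 scale. The genes were chosen for their large S2 differences, so the 2 sizes are not compared.

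The ribosomal stalk gene rla-1 had 147 RPKM at 6 hr and 308 RPKM at 12 hr over its gene model, and 1720 RPKM after feeding. The ribosomal protein genes rpl-43 and rpl-39 had 35.3 and 13.5 RPKM at 6 hr and 84.6 and 33.4 RPKM at 12 hr. For eft-4, which encodes translation elongation factor 1 alpha, the values were 57.0 and 121 RPKM. Its near copy eft-3 had 80.7 and 141 RPKM, and how reads were shared between copies is not stated. The linker histone gene hil-2 had 20.6 and 50.1 RPKM and the histone H2A gene his-35 had 20.7 and 47.2 RPKM, each below its input at 6 hr and above it at 12 hr. The fatty acid elongase gene elo-6 had 38.8 and 83.5 RPKM, tag-340 had 20.6 and 56 RPKM, and tag-235, named hat-1 in RefSeq, 18.7 and 50.1 RPKM.

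Under the same rule the largest decreases over gene models were in dmd-6 and dos-1, and other gene models differed by more. The DM-domain factor gene dmd-6 had 97.0 RPKM at 6 hr and 42.8 RPKM at 12 hr, from 1940 and 1410 reads, a ratio of 0.441 (95% counting interval 0.411 to 0.473), and both 4H8 columns were within 1 RPKM of the 12 hr value at 43.6 and 42.5 RPKM. The gene dos-1, for a secreted ligand of Notch receptors, had 28.8 and 11.3 RPKM, the latter at its input of 11.5 RPKM. The cpt-1 gene, which encodes a carnitine palmitoyltransferase that brings fatty acids into mitochondria, had 29.9 and 13.6 RPKM, so that genes of fatty acid oxidation lay at both ends of the ranking. The other genes of this ranking, msp-38, clec-89 (which lies inside unc-89), ram-2, gst-5, nhr-31, valv-1 and glb-1, had log2 differences from -0.88 to -0.65 with 5 RPKM added. Without it the ratios of msp-38 and clec-89 were 0.464 and 0.482, past 2-fold. Apart from nlp-35, whose 4H8 replicates differed by 1.08, replicate differences in these 12 genes were at most 0.33 in size. The genes were chosen for their large S2 decreases, so their replicate and S2 differences are not compared. Since 4H8 has no column at 6 hr, its values at dmd-6 are given as a description.

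The 3 genes with the densest gene models were the same at both times. The acyl-CoA synthetase gene acs-2 had 695 RPKM at 6 hr and 1160 RPKM at 12 hr, the glyoxylate cycle gene gei-7 had 694 and 904 RPKM and the alcohol dehydrogenase gene sodh-1 had 733 and 939 RPKM. The acs-2 start had 282 and 618 RPKM. The log2 difference of acs-2 was 0.74 over the gene and 1.12 at the start, but its 4H8 replicates at 12 hr differed by 0.80 and 1.14, so the change at acs-2 was no larger than the spread between replicate columns. The differences of gei-7 and sodh-1 over the gene, 0.38 and 0.36, stood beside replicate differences of 0.32 and 0.44. After 1 hr of feeding S2 density over acs-2 was 19.7 RPKM.

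Gene lists were described by the number of members past 2-fold and by their median, beside 14.3% higher and 3.8% lower for all start windows. For all gene models these shares were 1.07% and 0.818%, and 52.9% were above 0. Proteasome genes, whose products degrade tagged proteins, had the highest median at starts of the lists with at least 10 windows. Of 31 proteasome subunit genes, 25 start windows passed the filter, 12 were at least 2-fold higher and none was lower, with a median log2 difference of 0.97. The median density of these windows was 11.6 RPKM at 6 hr and 21.1 RPKM at 12 hr, near the 14.7 RPKM of input. Of the 25 windows, 15 exceeded input at 6 hr and 21 at 12 hr. None of the 31 gene models passed 2-fold, and their median was 0.34. Ubiquitin, conjugation and ligase genes had 10 higher and 4 lower of 59 start windows, with a median of 0.19, and cathepsin, aspartic and astacin protease genes had none higher and 2 lower of 11. The 20S core gene pbs-5 had 48.5 and 131 RPKM at its start, and the base gene rpt-2 had 11.6 and 41 RPKM there while its gene model had 46.9 and 42.3 RPKM. Both medians of the proteasome list stayed above 0 under quantile normalization, at 0.70 and 0.30.

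Histone genes had 13 of 32 start windows at least 2-fold higher and none lower, with a median of 0.92, and 3 higher and 1 lower of 21 gene models. Their start windows had a median of 16.4 RPKM at 6 hr and 30.4 RPKM at 12 hr, around an input of 22.7 RPKM. Histone genes have near-identical copies, and how the authors counted reads that match several of them is not stated, so these values are uncertain. Respiratory chain genes had 6 of 22 start windows higher and none lower with a median of 0.69, and none of 28 gene models past 2-fold with a median of 0.15. Splicing factor genes had 7 of 32 start windows higher and 1 lower, with a median of 0.48. Cell cycle and DNA replication genes had 7 of 22 higher and none lower, with a median of 0.48. Genes of the polymerase, Mediator and elongation factors had 6 of 42 higher and none lower, with a median of 0.30 that became -0.005 under quantile normalization. Apart from that list, the start window medians of the lists named here and of the proteasome genes stayed above 0 under each scaling tried.

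Genes of the translation apparatus had higher density over whole gene models, which include part of the start window. Of 81 cytosolic ribosomal protein gene models, 78 were denser at 12 hr against 52.9% of all gene models, 8 at least 2-fold and none 2-fold lower, with a median log2 difference of 0.60. Their median density was 32.4 RPKM at 6 hr and 55.5 RPKM at 12 hr, around an input of 41.6 RPKM, and 30 exceeded input at 6 hr and 60 at 12 hr. At starts, 18 of 69 were at least 2-fold higher and none lower, with a median of 0.62. These genes were thus near the input level during arrest, and the 21 of them long enough for a 5′ bias had a median bias difference of -0.03. One of the few that were less dense at 12 hr was rpl-38, with 31.8 and 26.6 RPKM over its gene. Translation factor genes had 20 of 21 gene models denser at 12 hr, with a median of 0.33, and aminoacyl-tRNA synthetase genes 19 of 22, with a median of 0.23. At tRNA synthetase starts 4 of 17 were at least 2-fold higher. At translation factor starts 3 of 15 were, with a median of 0.17, below the 0.20 of all start windows. These medians stayed above 0 under quantile normalization and under centring on chemoreceptor genes. The nucleolar gene fib-1, for fibrillarin, had 43.1 and 61.1 RPKM, and the nucleolar ribosome biogenesis list had a gene model median of 0.021, which was -0.13 under quantile normalization.

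**Figure D5:**
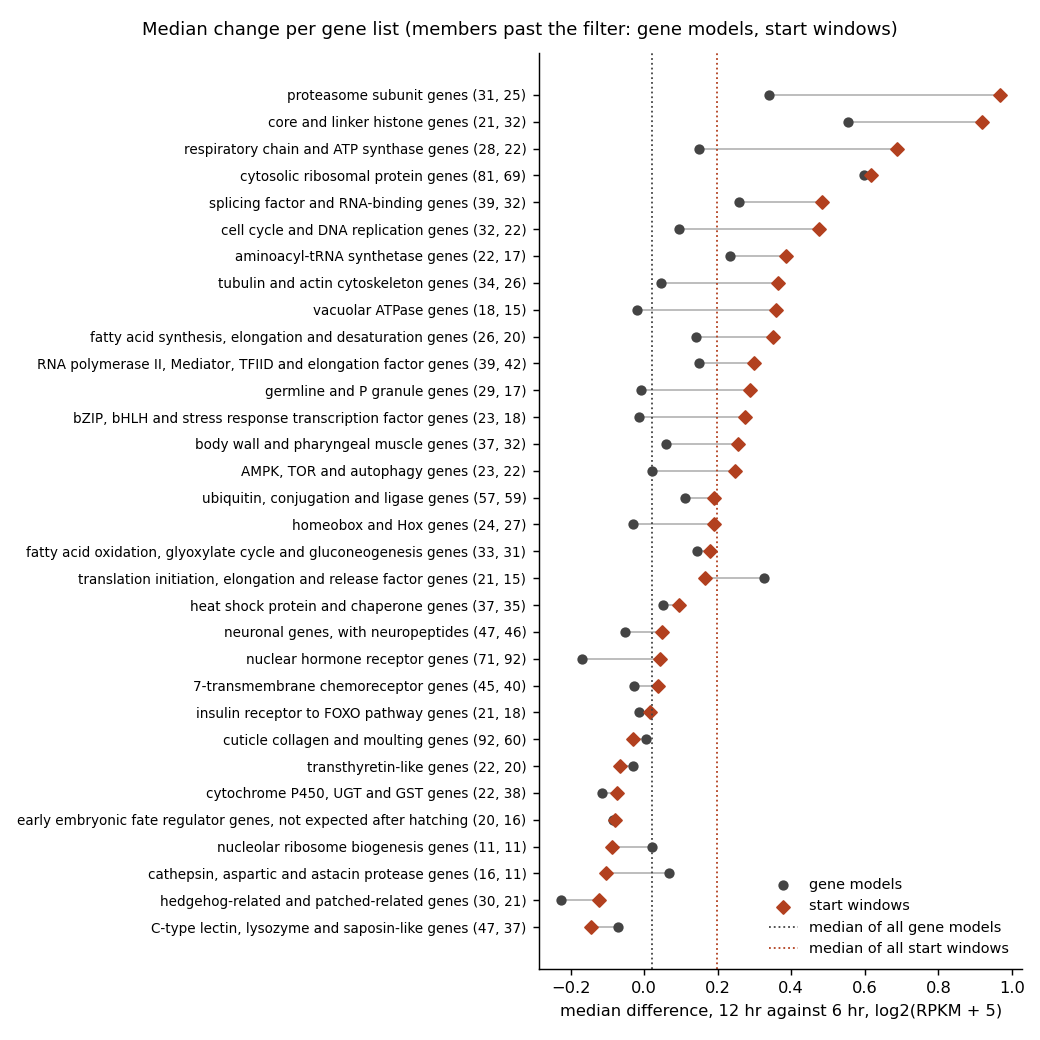
Median log2 difference between 12 hr and 6 hr of arrest (horizontal axis) for each gene list with at least 10 gene models and 10 start windows past the filter; circles are gene models, diamonds start windows, dotted lines the medians of all features, 0.021 and 0.20. The start window median reaches 0.97 for proteasome genes, and the ribosomal protein list has nearly equal medians for both, 0.60 and 0.62.

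Gene families of regulators and secreted proteins varied. Genes of bZIP, bHLH and stress response transcription factors had 3 higher and none lower of 18 start windows, with a median log2 difference of 0.27, and homeobox genes had 3 higher and 1 lower of 27, with a median of 0.19. Hedgehog-related genes, a family of secreted proteins and their patched-related partners, had 7 of 30 gene models above 0 with a median log2 difference of -0.23, and nuclear hormone receptor genes had 13 of 71 above 0 with a median of -0.17. None of either list passed 2-fold over the gene, and both medians turned to about 0 after centring on chemoreceptor genes, at -0.048 and 0.008. The start windows of nuclear receptor genes had 5 higher and 6 lower of 92, with a median of 0.043 that became -0.10 under quantile normalization. Neuronal genes had 1 higher and 5 lower of 46 start windows. Genes for C-type lectins and lysozymes had 2 higher and 3 lower of 37, and those for cytochrome P450 and related enzymes 1 higher and 2 lower of 38. Chemoreceptor genes, a large family with little use in most cells, had 3 higher and 2 lower of 40. Muscle genes had 5 higher and none lower of 32 start windows, and gene models of the list had a median of 0.059 that became -0.017 under quantile normalization. The muscle genes unc-54 and myo-3 had 127 and 38.9 RPKM at 6 hr and 118 and 53.5 RPKM at 12 hr over their gene models.

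Pathways that sense food were close to level over their genes. Insulin pathway genes had none of 21 gene models past 2-fold, with a median log2 difference of -0.015 (-0.063 under quantile normalization and 0.16 after centring on chemoreceptor genes). The insulin receptor gene daf-2 had 22 and 20.8 RPKM, and the FOXO factor gene daf-16 had 47.6 and 46.4 RPKM. AMPK, TOR and autophagy genes had none of 23 past 2-fold, with a median of 0.021 that became -0.012 under quantile normalization. The timing gene lin-14 had 49.8 and 49.1 RPKM and lin-28 had 19.7 and 23 RPKM. Fasting metabolism genes had 2 of 33 at least 2-fold higher, hacd-1 among them, and none lower, with a median of 0.14. The gene of the largest polymerase subunit, ama-1, had 21.9 and 24.8 RPKM, and the elongation factor genes cdk-9 and spt-5 had 8.11 and 23.9 RPKM at 6 hr and 8.18 and 25.9 RPKM at 12 hr. Among microRNA genes, whose models of a few bases make gene density unreliable, 8 of 68 start windows were at least 2-fold higher and 6 lower. The start of mir-58 had 162 and 185 RPKM.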

How the data were processed

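Per the file headers, the authors deposited RPKM densities for gene models and for a TSS window of up to 200 bp, and ratios: fold enrichment over the input density or its median (11.0 RPKM for genes, 10.1 RPKM for windows) where that was higher, and a 5′ bias from these. The aligner is not given in the sources used here. Coordinates are WS190. RPKM steps were resolved into whole reads within 0.1 read for 96.6% and 94.1% of gene values and 97.8% and 97.5% of window values at 6 hr and 12 hr. Window lengths were inferred: 18290 of 20314 were 200 bp and 2024 shorter. Intervals are exact binomial and cover counting error only.

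Differences are 12 hr minus 6 hr on log2(RPKM + 5), which understates changes of sparse features. Named genes have a public symbol (7819 do), a mean of at least 10 RPKM, at least 20 reads and 2 times input in the denser column; the 12 largest changes each way in gene density, 10 in start density, 6 in bias, the extremes of each list and 24 set genes were eligible; egl-30, kel-3, prmt-5, iff-2, mir-52 and the markers were named for their levels or as markers. Members, lists and genes were chosen with earlier results of these data known. RefSeq symbols (19706 models matched) gave names, the mitochondrial ribosomal protein list and an added version of the other lists. Code was tested on simulated data. Python 3.11.15, pandas 2.3.3, numpy 2.4.6, scipy 1.17.1 and matplotlib 3.10.9 were used. Alternatives were other pseudocounts, filters, scalings, the authors' ratios and overlap-free features. Sequences are not used here.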

Additional observations from a re-analysis of the deposited data

How the results depend on the processing

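No paired analysis was possible because the tables hold 1 S2 column for each time, and no replicate could be left out. The excess of higher over lower start windows held under every alternative run, but its size did not. With a pseudocount of 1 RPKM, 104 gene models and 417 start windows were lower, the window median was 0.26, and bias was higher in 1355 and lower in 535 genes. With 20 RPKM, gene models gave 27 higher and 21 lower, windows 391 higher and 13 lower with a median of 0.13, and bias 269 higher and 9 lower with a median of 0.10. Without a filter, 97 gene models were lower with a median of -0.094, windows gave 1417 higher and 1031 lower with a median of 0.00, and bias 1295 higher and 485 lower with a median of 0.11. With a mean of at least 20 RPKM, 27 gene models were lower with a median of 0.11, 61 windows were lower with a median of 0.34, and bias gave 526 higher and 72 lower with a median of 0.26. Quantile normalization reversed the window median to -0.012 and gave 396 lower windows, since it gives both columns the same distribution; centring on the median window, chosen after seeing the data, gave 406 lower and a median of 0.00. Centring on chemoreceptor genes gave 140 higher and 37 lower gene models with a median of 0.20, and a window median of 0.26. The authors' ratios without a pseudocount gave 137 higher and 127 lower gene models, 468 lower windows with a median of 0.28, and bias 1351 higher and 598 lower with a median of 0.25. In gene models of at least 2000 bp, bias was lower in 113. The causes were not tested. Leaving the start window out of the gene body, or leaving out overlapping features (chosen after seeing the data), kept counts within 1.5 times. Of 33 lists, 15 had a window median above that of all windows, 18 after quantile normalization. A start window of 3 or 4 reads limits what single windows show.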

Other observations

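Mitochondrial ribosomal protein genes carry no symbols in the deposited coordinates and were matched through RefSeq after the data were seen. Of 48 start windows past the filter, 11 were at least 2-fold higher at 12 hr and 2 lower, with a median log2 difference of 0.42, and none of 48 gene models passed 2-fold, with a median of 0.14.

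The sdc-1 start window on the X, named after its values were seen, had the largest decrease among the 6417 start windows. It had 324 RPKM with S2 at 6 hr, 8.19 RPKM with S2 at 12 hr and 215 RPKM in the pooled input. The 4H8 replicates at 12 hr had 168 and 1.08 RPKM, 8WG16 at 12 hr had 8.88 RPKM, and the 4 columns from fed larvae had between 3.41 and 20.0 RPKM. The 2 replicate columns of the same state thus differed there as much as the 2 times did, and the sdc-1 gene model had 19.6 and 10.4 RPKM with S2.

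Start windows with at most 20 RPKM at 6 hr and at least 100 RPKM at 12 hr numbered 11, named after their values were seen. They include smr-1 with 17.6 and 103 RPKM, haf-6 with 17.4 and 105 RPKM, and ZK616.4 with 0 and 129 RPKM. At ZK616.4 the 4H8 columns at 12 hr had 238 and 82.8 RPKM, 8WG16 had 118 RPKM and S2 after feeding had 33.4 RPKM, against 6.46 RPKM in input.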
